A study of Mus musculus with 60 samples.

Results

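The proteasome is the protease complex that degrades most ubiquitin-tagged proteins in the cytosol and nucleus. Messenger RNA of its genes was followed in the brains of mice with and without Glo1, the gene for glyoxalase 1, which detoxifies methylglyoxal. The members were all genes whose symbol begins with Psma to Psmg and a digit, and 50 of the 21999 genes in the deposited tables met this rule. Of these, 49 encode subunits, activators, an inhibitor or assembly chaperones of the proteasome, by name. The remaining gene, Psmc3ip, encodes a meiotic recombination protein that carries a proteasome-like symbol, and it was kept because the symbol matched.

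Tissue came from prefrontal cortex, striatum and hippocampus of 20 mice, so that 60 libraries fell into 12 groups of 5. Mice were wild type (WT) or Glo1 knockout (KO). Between 8 and 12 weeks of age their food held vitamin B6 (VB6) at 1.4 mg per 100 g (normal diet) or at 5 µg per 100 g (lacking diet). The 4 combinations were WT on the normal diet, WT on the lacking diet, KO on the normal diet and KO on the lacking diet, and each mouse gave 1 library per region. The labels did not say how the knockout was made, nor the strain or sex of the mice. All 30 KO libraries carried batch number 1 and all 30 WT libraries batch number 2, so that batch and genotype cannot be told apart in any comparison of KO with WT.

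Library totals were between 7640047 and 13928265 counts. Glo1 had 0 to 10 counts in KO libraries and 299 to 734 in WT libraries, so the genotype labels held in all 60. The region labels also held: the summed level of 5 striatal markers was 1364 to 1695 RPKM (reads per kilobase of gene, scaled to library total) in striatum and at most 38.99 elsewhere, that of 5 cortical markers was 144.6 to 169.5 in prefrontal cortex and at most 65.58 elsewhere, and that of 5 hippocampal markers was 171.8 to 212.8 in hippocampus and at most 100.7 elsewhere.

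The 20S core is a barrel of alpha and beta rings, and its proteolytic sites lie in the beta subunits encoded by Psmb5, Psmb6 and Psmb7. Interferon-inducible counterparts encoded by Psmb8, Psmb9 and Psmb10 can take the places of Psmb5, Psmb6 and Psmb7, respectively, which gives the immunoproteasome, known for making peptides for MHC class I. The 19S cap holds 6 ATPases and a set of non-ATPase subunits that receive and unfold ubiquitin-tagged proteins. Caps made of Psme1 and Psme2, of Psme3 or of Psme4 open the barrel without ubiquitin, Psmf1 encodes an inhibitor, and the Psmg genes encode chaperones of 20S assembly. In the healthy brain the constitutive form is known to prevail, and immunoproteasome subunits are known mainly from microglia and inflamed tissue.

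Psmb8 and Psmb9 lie on the chromosome of Glo1. In the GENCODE M21 annotation of mm10, the build named in the submitters' processing notes, Glo1 spans chr17:30584936-30626871. Psmb9 spans chr17:34181987-34187764 on the minus strand and lies 3.60 Mb from Glo1. Psmb8 spans chr17:34197721-34201454 on the plus strand and lies 3.61 Mb from Glo1. Tap1, which encodes a subunit of the transporter that carries proteasome products into the endoplasmic reticulum, lies between them on the plus strand, and its start overlaps that of Psmb9. Psmb1, a constitutive beta subunit, is the only other member on chromosome 17 and lies 15.1 Mb from Glo1, and Psmb10 lies on chromosome 8.

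Sequence before the RefSeq start is shown for Psmb10 and Psme1. They were chosen for the largest log2 fold changes between striatum and each other region, among proteasome genes with enough counts to be tested. Each run is the stretch of the RefSeq upstream window (GRCm38.p6) that lies outside GENCODE exons, read 5′ to 3′ on the gene's strand. The Psmb10 run is chr8:105938445-105938642 on the minus strand, with 198 bases and a GC content of 44.9%. The Psme1 run is chr14:55578249-55578359 on the plus strand, with 111 bases and a GC content of 64.9%. It lies inside the GENCODE span of Psme1 (chr14:55578123-55581529), so it precedes the RefSeq start but not the GENCODE start.
Psmb10: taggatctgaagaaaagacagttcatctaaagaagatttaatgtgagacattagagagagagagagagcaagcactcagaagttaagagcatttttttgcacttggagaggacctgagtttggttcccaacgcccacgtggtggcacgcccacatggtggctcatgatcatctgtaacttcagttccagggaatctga
Psme1: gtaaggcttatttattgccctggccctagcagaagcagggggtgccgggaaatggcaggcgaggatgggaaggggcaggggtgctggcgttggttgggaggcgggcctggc
No capitals appear because none of the 4 motifs searched on both strands occurs in these letters. The motifs were the interferon-stimulated response element (GAAA, any 2 bases, GAAA), the gamma-activated sequence TTCNNNGAA, the pattern TGANNNNGC and the CCAAT box. TGANNNNGC is a loose form of the antioxidant response element core and is called the antioxidant core here. In the 250 bases before the RefSeq start, the response element was in 3 of 45 member windows (6.67%) against 2.98% of all 32851 windows. The gamma-activated sequence was in 2 (4.44%) against 7.02%. The antioxidant core was in 18 member windows (40.0%) against 35.2%, and the CCAAT box was in 15 (33.3%) against 33.8%. Of the catalytic subunits, all but Psmb7 had a window. Psmb5 held an antioxidant core 47 to 39 bases before its RefSeq start and Psmb6 another at 9 to 1 bases, and Psmb10 held none of the 4 motifs. Psmb8 held a gamma-activated sequence at 97 to 89 bases, and Psmb9 an antioxidant core at 60 to 52 bases and a CCAAT box at 8 to 4 bases. The windows of Psmb8 and Psmb9 lie wholly within GENCODE exons, so those matches are in annotated exon sequence. GENCODE exons also cover 55.6% of the Psme1 window, 20.8% of the Psmb10 window and 10.8% of the Psmb5 window. These windows matched 42 of the 50 members, and a match is a description of letters, not a site.

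Most proteasome genes were well expressed in all 3 regions. The median member had a mean level of 12.8 RPKM over 60 libraries, against 2.48 RPKM for the 18514 genes with any count, and 41 of 50 members lay above that all-gene median. In all, 31 members had at least 10 RPKM and 6 had less than 1 RPKM. The highest was Psmc1, which encodes an ATPase of the 19S cap, with 124 ± 6.26 RPKM (SD, n = 60).

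**Figure D1:**
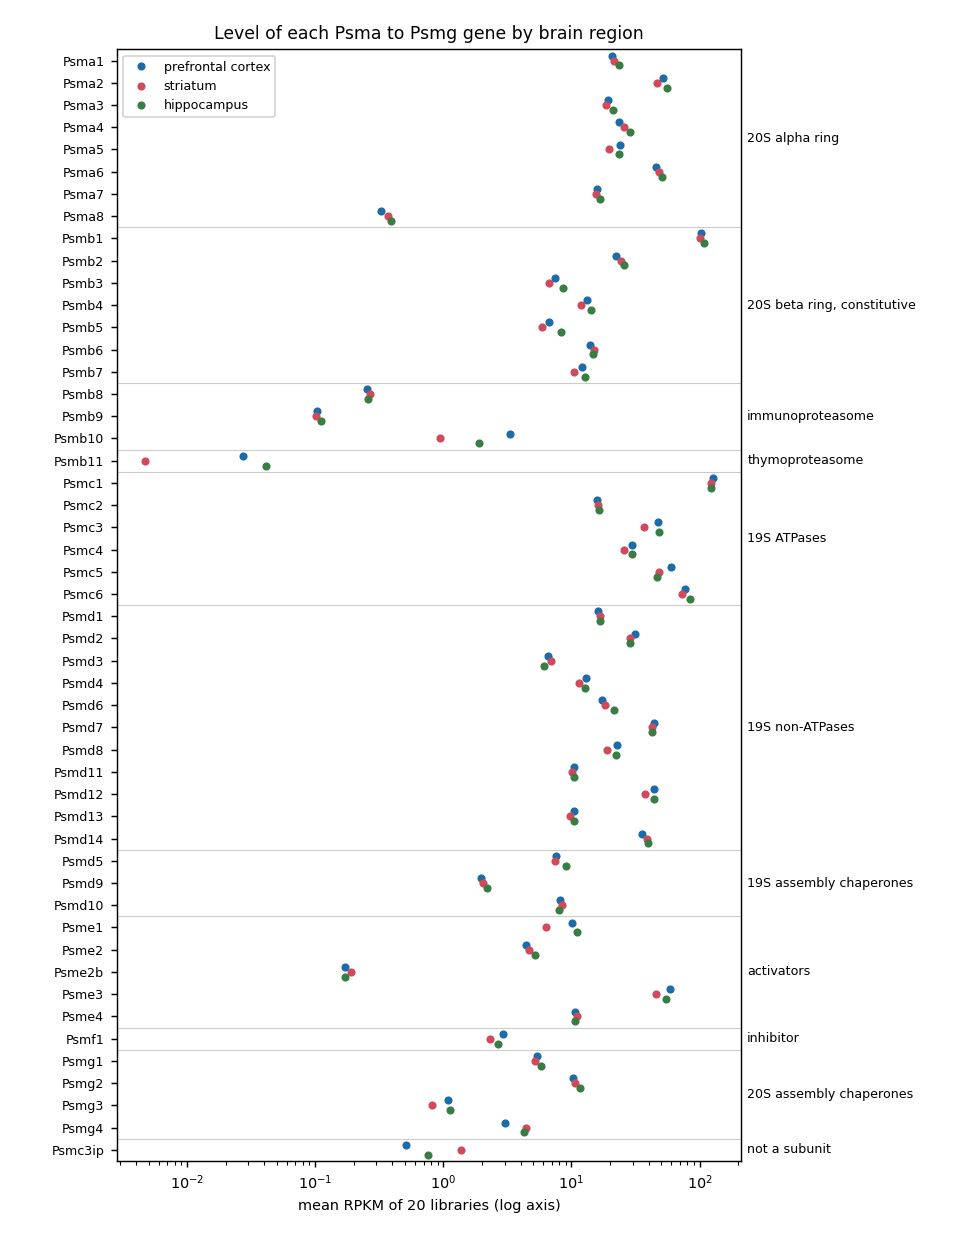
Mean RPKM (log axis) of each of the 50 genes in prefrontal cortex, striatum and hippocampus, 20 libraries each, ordered by role. Most genes keep nearly the same level in the 3 regions, Psmb10, Psme1 and Psmc3ip spread visibly, and Psmb8, Psmb9 and Psmb11 lie below 1 RPKM.

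By role, the 19S ATPases had the highest median level (47.8 RPKM over 6 genes), from Psmc2 at 16.1 to Psmc1 at 124 RPKM, with Psmc4 at 28.4, Psmc3 at 44.2, Psmc5 at 51.4 and Psmc6 at 78.3 RPKM between them. The alpha ring followed with a median of 22.1 RPKM over 8 genes, from Psma2 at 51.5 RPKM down to Psma8, a testis form of Psma7, at 0.362 RPKM. Psma1, Psma3, Psma4, Psma5, Psma6 and Psma7 lay between 16.1 (Psma7) and 48.4 RPKM (Psma6). The 11 non-ATPase cap subunits ranged from Psmd3 at 6.498 to Psmd7 at 43.1 RPKM. Psmd12 (42.0), Psmd14 (38.0), Psmd2 (29.6) and Psmd8 (21.3 RPKM) lay above Psmd6, the middle gene, and Psmd1 (16.6), Psmd4 (12.4), Psmd11 (10.4) and Psmd13 (10.3 RPKM) below it. The 7 constitutive beta subunits had a median of 13.1 RPKM, from Psmb5 at 6.96 to Psmb1 at 104 RPKM. Psmb2, Psmb3, Psmb4, Psmb6 and Psmb7 lay between 7.60 (Psmb3) and 24.1 RPKM (Psmb2). The order of genes and roles by RPKM depends on the gene lengths used in the deposited values. Psmb7 had more counts than Psmb2 (26122 against 18811) but a lower RPKM (11.8), at lengths of 3421 and 1204 bases.

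Accessory roles had lower median levels than these roles. Psme3, the nuclear activator, was an exception among their genes with 53.1 RPKM. The other activators ranged from Psme4 at 10.8 to Psme2b at 0.176 RPKM. Of the reads expected from Psme2b, 60.2% of 75-base stretches also occur in Psme2, so these 2 cannot be separated well. Psmf1, the inhibitor, had 2.63 RPKM. The 20S assembly chaperones had a median of 4.69 RPKM, from Psmg3 at 1.008 to Psmg2 at 10.8 with Psmg4 at 3.90 and Psmg1 at 5.47, and the cap chaperones Psmd5, Psmd9 and Psmd10 had 8.00, 2.07 and 8.20 RPKM. Psmb11, the thymus-specific catalytic subunit, had 0.0243 RPKM and 0 counts in 31 of 60 libraries.

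Immunoproteasome transcripts were scarce, and most of them came from Psmb10. Over all 60 libraries Psmb8 had 462 counts, Psmb9 246 and Psmb10 2267, against 3935 for Psmb5, 17706 for Psmb6 and 26122 for Psmb7. Psmb8 was at 0 in 1 library and Psmb9 in 3, and a count of 0 allows up to 3 counts, or 0.215 to 0.393 CPM (counts scaled to library total) depending on the library. These limits cover counting error only.

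Psmb8 had 0.0420, 0.258 and 0.446 RPKM (lowest, median and highest of 20 libraries) in prefrontal cortex, 0.146, 0.241 and 0.547 in striatum, and 0, 0.227 and 0.540 in hippocampus. Psmb9 had 0, 0.0819 and 0.203 RPKM in prefrontal cortex, 0.0358, 0.0912 and 0.255 in striatum, and 0, 0.101 and 0.257 in hippocampus. The 3 regions overlapped almost entirely for both genes. Reads of Psmb8 can also come from Gm20496, annotated on the opposite strand over 14.7% of its exon bases, and those of Psmb9 from Tap1 over 5.79%, since strand in counting was not given in the sources used here.

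Psmb10, which encodes the inducible counterpart of Psmb7, differed clearly by region. It had 1.89, 3.42 and 4.90 RPKM (lowest, median and highest) in prefrontal cortex, 0.389, 0.858 and 1.54 in striatum, and 1.07, 1.97 and 2.77 in hippocampus. All 20 striatal libraries lay below all 20 cortical ones, and the hippocampal range overlapped both. Within mice, striatum was lower than prefrontal cortex in 20 of 20 and hippocampus was higher than striatum in 19 of 20.

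**Figure D2:**
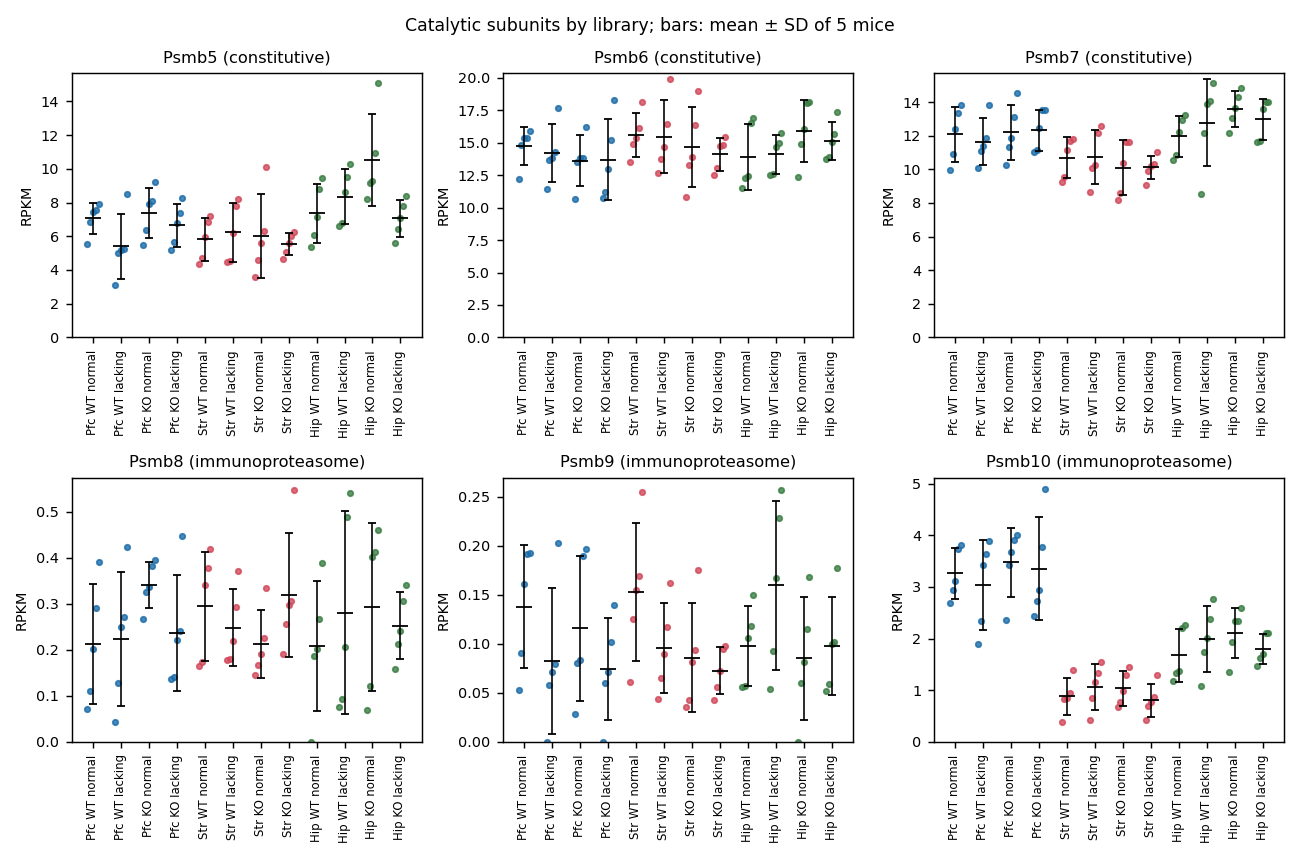
RPKM of the constitutive subunits Psmb5, Psmb6 and Psmb7 (top) and the immunoproteasome subunits Psmb8, Psmb9 and Psmb10 (bottom) in the 12 groups; points are libraries of 5 mice, sorted by value, and bars are mean ± SD, with axes that start at 0 and differ between panels. Psmb10 separates striatum from prefrontal cortex, with hippocampus overlapping both, while WT and KO, and normal and lacking diet, overlap within each region in all 6 panels.

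The constitutive partners showed smaller differences. Psmb7 had medians of 11.9, 10.3 and 13.1 RPKM in prefrontal cortex, striatum and hippocampus, Psmb6 had 13.8, 14.8 and 14.97, and Psmb5 had 6.81, 5.79 and 8.31. The mean ratio of Psmb10 to Psmb7 within libraries was 0.272 in prefrontal cortex, 0.0900 in striatum and 0.147 in hippocampus. Psmb5 is uncertain in all comparisons, since 36.8% of its 75-base stretches also occur in Gm3375 or Mir686.

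As a share of the RPKM of the 6 catalytic subunits, Psmb8, Psmb9 and Psmb10 together made up 9.95 ± 1.60% in prefrontal cortex, 3.98 ± 0.931% in striatum and 5.87 ± 1.013% in hippocampus (SD, n = 20 each). The lowest cortical library, at 6.77%, was above the highest striatal library, at 5.79%. Hippocampal libraries ranged from 4.47 to 7.88% and overlapped both. Psmb10 gave 90.2% of the immunoproteasome RPKM in prefrontal cortex, 71.9% in striatum and 83.7% in hippocampus. The share rested on 29 to 120 counts of the 3 genes per library in prefrontal cortex, 15 to 46 in striatum and 25 to 67 in hippocampus. It depends on how it is scaled: from CPM, without gene length, it was 8.28% in prefrontal cortex.

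**Figure D3:**
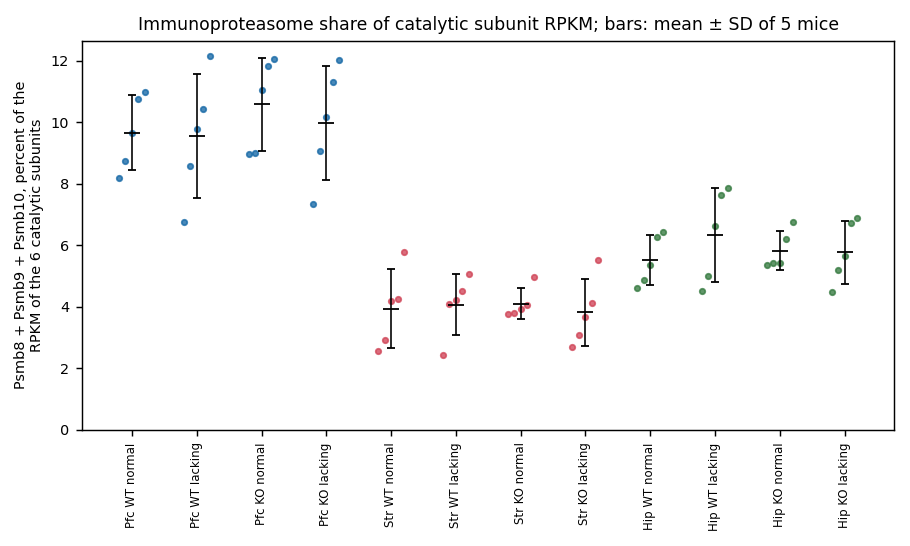
Share of Psmb8, Psmb9 and Psmb10 in the summed RPKM of the 6 catalytic subunits, in percent, for each library in the 12 groups; bars are mean ± SD of 5 mice and the axis starts at 0. Cortical libraries reach 12.2%, striatal ones stay at or below 5.79%, and genotype and diet groups overlap within each region.

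In bulk tissue, fewer cells of a type and less RNA per cell cannot be told apart, and cell composition differed between regions. The summed level of 10 microglial markers, all detected, ranged from 155.5 to 187.8 RPKM in prefrontal cortex, 173.5 to 243.0 in striatum and 156.8 to 195.6 in hippocampus. On average it was highest in striatum (197 RPKM, against 172 in cortex). Endothelial markers (7 of 7 detected) ranged from 32.3 to 45.8, 34.6 to 51.2 and 32.7 to 45.3 RPKM in the same order. Perivascular and infiltrating immune markers (6 of 6 detected) summed to 1.10 to 3.41, 1.32 to 2.35 and 1.27 to 3.22 RPKM. Neuronal markers averaged 1586, 1004 and 1154 RPKM, and oligodendrocyte markers 305, 749 and 609. The part of these cell types in the Psmb10 difference was not tested.

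Differences between regions were tested over both genotypes and diets in a fit of all 60 libraries with edgeR's quasi-likelihood test and Benjamini-Hochberg adjustment over 13930 genes. Of the 50 members, 47 had enough counts to be tested, and Psmb9, Psmb11 and Psme2b did not. The 3 comparisons share libraries, so their values are given side by side. DESeq2 called 24, 19 and 27 members in the order below, and limma 23, 24 and 26. Shares of all genes are given for the main edgeR fits only, so these counts have no background beside them.

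Striatum against prefrontal cortex gave 25 of 47 members past the adjusted threshold of 0.05 (53.2%, against 69.9% of all genes), with 9 higher and 16 lower in striatum (background 35.9% higher and 34.0% lower). The median member's log2 fold change was 0.115 in absolute size, against 0.301 over all genes. Psmb10 was lowest, with a log2 fold change of -1.77 (SE 0.129, adjusted p = 7.93e-19), or 3.41-fold lower in striatum. On the log2(RPKM + 1) scale of limma, which understates low genes, it was -1.14. Psme1, an interferon-inducible activator subunit, was 1.57-fold lower (log2 fold change -0.65, SE 0.0692, adjusted p = 1.41e-12).

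Psme1 had 7.22, 10.3 and 14.1 RPKM (lowest, median and highest) in prefrontal cortex, 4.72, 6.11 and 9.09 in striatum, and 8.19, 10.8 and 14.3 in hippocampus. Striatum was below prefrontal cortex in 20 of 20 mice and below hippocampus in 20 of 20. Psme2, which encodes its partner in the same ring, had medians of 4.26, 4.72 and 4.87 RPKM and did not pass the test in any pair of regions, with log2 fold changes of 0.11 (SE 0.0872, adjusted p = 0.271) for striatum and 0.18 (SE 0.0866, adjusted p = 0.0765) for hippocampus against cortex. Of the 75-base stretches of Psme2, 22.9% also occur in Psme2b.

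Among the cap ATPases, 3 of 6 (Psmc3, Psmc4 and Psmc5) were lower in striatum than in prefrontal cortex and none higher. Of the 11 non-ATPases, Psmd1 and Psmd14 were higher, and Psmd2, Psmd4, Psmd8 and Psmd12 were lower. Psmc3 had 39.8, 47.4 and 55.0 RPKM in cortex and 31.9, 37.7 and 41.3 in striatum, and 18 of 20 striatal libraries lay below every cortical one. Its log2 fold change was -0.33 (SE 0.0407, adjusted p = 1.71e-10). The opposite-strand gene Slc39a13 overlaps 8.25% of its exon bases. Psme3, the nuclear activator, had 51.8, 57.7 and 69.2 RPKM in cortex and 41.0, 44.9 and 54.3 in striatum, with a log2 fold change of -0.33 (SE 0.0418, adjusted p = 2.53e-10). Psmf1, the inhibitor, fell by 0.31 on the log2 scale in striatum against cortex (SE 0.0512, adjusted p = 3.07e-07).

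In the 20S core, 3 alpha genes (Psma1, Psma4 and Psma6) were higher and 2 (Psma2 and Psma5) lower in striatum than in cortex, and among the 7 constitutive beta genes Psmb2 was higher and Psmb4 and Psmb7 were lower. Their log2 fold changes lay between -0.28 (Psma5) and 0.16 (Psmb2), and 35.2% of the 75-base stretches of Psma5 also occur in Gm12989 or Gm8394. Psmb7 had -0.19 (SE 0.0520, adjusted p = 0.00108), and Nek6 on the opposite strand overlaps 11.8% of its exon bases. Psmb8 had 0.11 (SE 0.237, adjusted p = 0.691) and Psmb6 0.12 (SE 0.0614, adjusted p = 0.0897), and neither passed the test. Psmg4, a 20S assembly chaperone, was higher in striatum, with 0.60 (SE 0.182, adjusted p = 0.00312), and Psmg3, another, was lower (-0.37, SE 0.129, adjusted p = 0.00862).

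Psmc3ip, which is not a subunit, had the highest log2 fold change of the 47 tested symbols in striatum against cortex. It had 0.126, 0.488 and 0.998 RPKM in cortex, 0.871, 1.40 and 1.91 in striatum, and 0.280, 0.767 and 1.54 in hippocampus. Its log2 fold change in striatum against cortex was 1.46 (SE 0.168, adjusted p = 1.83e-11), or 0.66 on the log2(RPKM + 1) scale in limma. Mlx on the opposite strand overlaps 21.2% of its exon bases, and reads from that part may belong to either gene. How such reads were counted was not given in the sources used here.

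Hippocampus against prefrontal cortex gave 18 of 47 members (38.3%, against 59.3% of all genes), with 10 higher and 8 lower in hippocampus (background 30.2% and 29.1%). Psmc5, a cap ATPase, had the smallest p, with 44.7, 58.7 and 76.4 RPKM in cortex and 31.2, 46.5 and 57.3 in hippocampus and a log2 fold change of -0.41 (SE 0.0525, adjusted p = 9.61e-10). Psmb10 had a log2 fold change of -0.85 (SE 0.119, adjusted p = 7.76e-09) and was lower in hippocampus in 18 of 20 mice. Psmd5, a chaperone of cap assembly, was higher by 0.20 (SE 0.0327, adjusted p = 3.95e-07), and 18 of 20 hippocampal libraries lay above every cortical one.

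The next members by p followed in that pair. Psmd2, a scaffold subunit of the cap, had a log2 fold change of -0.17 (SE 0.0321, adjusted p = 5.04e-06). Psmd6, a cap lid subunit, had 0.24 (SE 0.0485, adjusted p = 2.13e-05) and Psma4, an alpha subunit, 0.22 (SE 0.0491, adjusted p = 8.02e-05). Among catalytic subunits, Psmb5 was higher in hippocampus (0.26, SE 0.0990, adjusted p = 0.0200), whereas Psmb6, Psmb7 and Psmb8 did not pass, with adjusted p of 0.869, 0.667 and 0.988.

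Hippocampus against striatum gave 26 of 47 members (55.3%, against 66.4% of all genes), with 17 higher and 9 lower in hippocampus (background 32.9% and 33.6%). Psme1 had a log2 fold change of 0.72 (SE 0.0691, adjusted p = 5.19e-14) and Psmb10 0.91 (SE 0.136, adjusted p = 2.79e-08). Psmc3 was higher by 0.30 (SE 0.0407, adjusted p = 2.29e-09) and Psmd5 by 0.20 (SE 0.0327, adjusted p = 4.66e-07). Psmc3ip was lower, with -0.95 (SE 0.160, adjusted p = 4.85e-07).

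In the constitutive beta ring, 4 of 7 genes were higher in hippocampus than in striatum and none lower. These were Psmb3 (log2 fold change 0.28), Psmb4 (0.19), Psmb5 (0.39) and Psmb7 (0.22), with adjusted p between 0.000121 and 0.000532. Psmb3 also shares 10.3% of its 75-base stretches with 4 other annotated genes. Psmb8 had -0.12 (SE 0.237, adjusted p = 0.682). Without the low-count filter, Psmb9 had log2 fold changes of -0.01 (SE 0.293), 0.04 (SE 0.285) and 0.04 (SE 0.287) in the 3 pairs in the order given, and none passed. Also without the filter, Psme2b did not pass in any pair, whereas Psmb11 passed in 2. Psmb11 had 24 counts over the 20 cortical libraries, 4 over the striatal and 35 over the hippocampal ones, and 0 counts in 9, 16 and 6 of them. Its fitted log2 fold changes were -1.96 (SE 0.659, adjusted p = 0.00861) for striatum against cortex, 0.51 (SE 0.493, adjusted p = 0.449) for hippocampus against cortex and 2.47 (SE 0.626, adjusted p = 0.000547) for hippocampus against striatum. No library had more than 6 counts, the ranges of the regions overlapped, and the filter of the main test leaves the gene out.

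**Figure D4:**
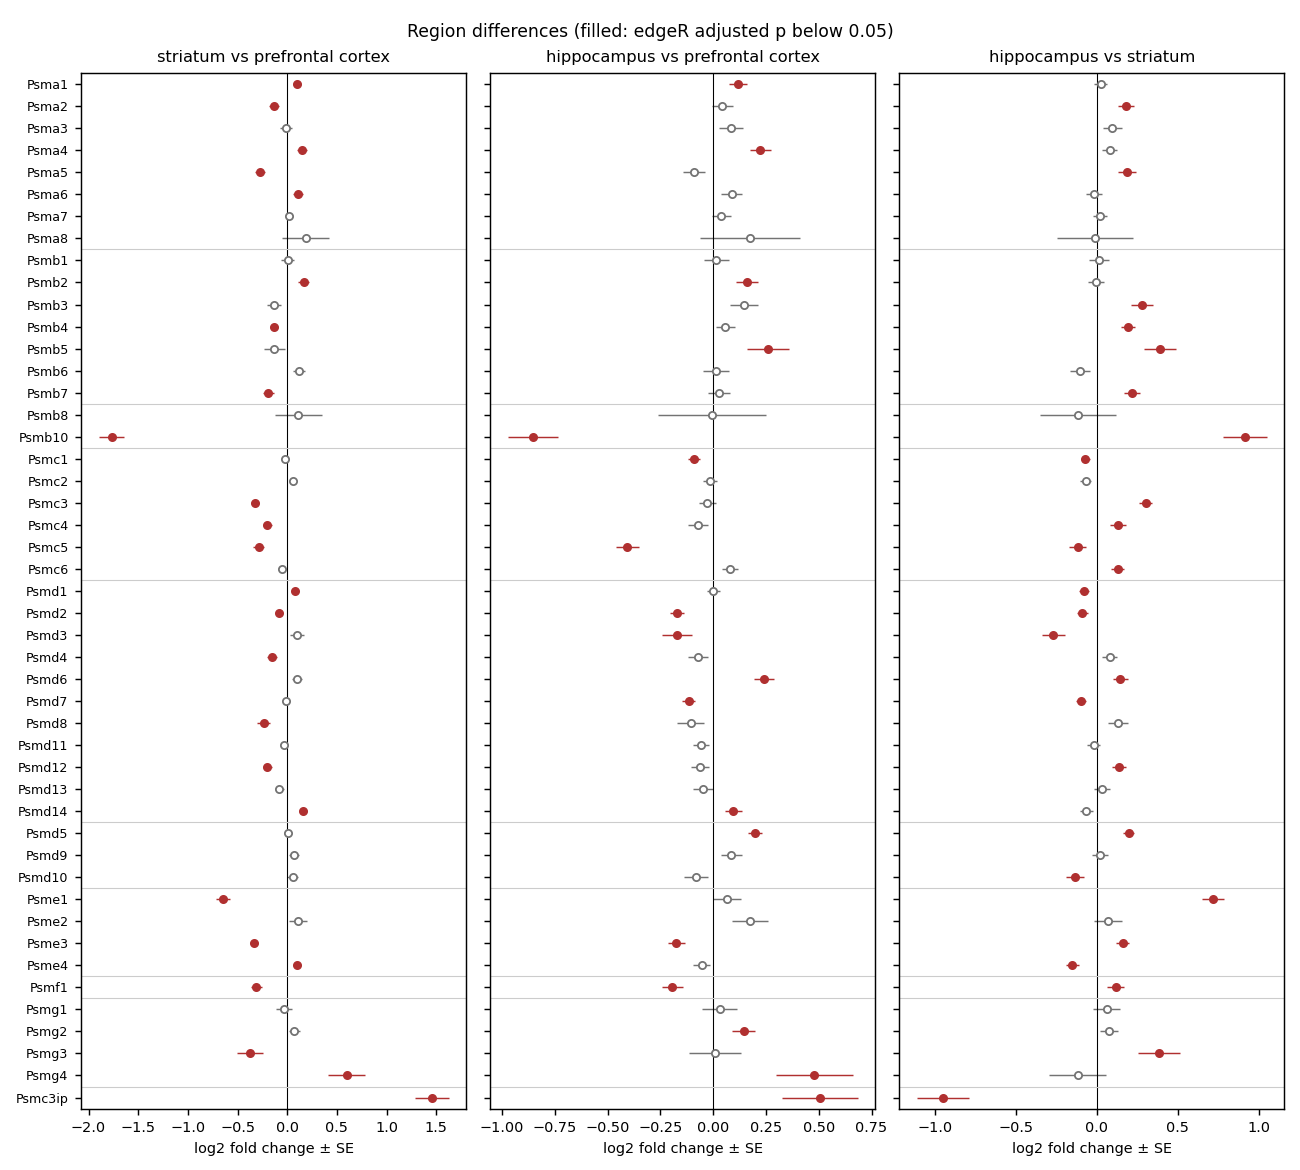
Log2 fold change ± SE (horizontal axes, scaled separately) of the 47 tested genes for striatum against prefrontal cortex, hippocampus against prefrontal cortex and hippocampus against striatum; filled red points have an edgeR adjusted p below 0.05. Psmb10 and Psme1 stand at the left in the first panel and at the right in the third, and most other proteasome genes lie within 0.4 of 0.

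The genotype comparison asked whether loss of Glo1 went with other proteasome levels. No member passed in any region. Over diets, edgeR's quasi-likelihood test called 0 of 46 tested members in prefrontal cortex (against 0.673% of 13223 genes), 0 of 46 in striatum (0.203% of 13311) and 0 of 46 in hippocampus (0.164% of 13393). Psma8, Psmb9, Psmb11 and Psme2b had too few counts to be tested in these fits. At an unadjusted p under 0.05 there were 12, 0 and 3 members (against 14.1%, 5.78% and 4.24% of all genes), DESeq2 called 1, 0 and 0, and limma on log2(RPKM + 1) called 0 in all 3.

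The immunoproteasome subunits did not pass in any region. In prefrontal cortex Psmb10 had 1.89, 3.27 and 3.88 RPKM (lowest, median and highest of 10) in WT and 2.36, 3.56 and 4.90 in KO, with a log2 fold change of 0.09 (SE 0.142, adjusted p = 0.826). In striatum it had 0.389, 0.896 and 1.54 RPKM in WT and 0.416, 0.818 and 1.45 in KO, with -0.02 (SE 0.236, adjusted p = 0.987). In hippocampus it had 1.07, 1.87 and 2.77 in WT and 1.35, 2.02 and 2.59 in KO, with 0.11 (SE 0.168, adjusted p = 1.00). The genotypes overlapped in every region.

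Psmb8, on the Glo1 chromosome, had 0.217 ± 0.130 RPKM in WT and 0.289 ± 0.106 in KO prefrontal cortex (SD, n = 10 each), 0.271 ± 0.0998 and 0.266 ± 0.117 in striatum, and 0.244 ± 0.179 and 0.272 ± 0.133 in hippocampus. Its log2 fold changes were 0.34 (SE 0.321), 0.02 (SE 0.260) and 0.17 (SE 0.398), and by edgeR their adjusted p were 0.665, 0.987 and 1.00. Psmb9 had 0.110 ± 0.0711 and 0.0950 ± 0.0640 RPKM in WT and KO cortex, 0.124 ± 0.0638 and 0.0790 ± 0.0411 in striatum, and 0.128 ± 0.0717 and 0.0914 ± 0.0539 in hippocampus. Without the count filter its log2 fold changes were -0.24 (SE 0.460), -0.55 (SE 0.359) and -0.47 (SE 0.413), and by edgeR the adjusted p were 0.926, 0.793 and 1.00. At 0 to 17 counts per library, a difference of the size of these errors was not detectable in either gene.

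The mean immunoproteasome share was 9.61 ± 1.58% in WT and 10.3 ± 1.63% in KO prefrontal cortex, 4.001 ± 1.08% and 3.96 ± 0.815% in striatum, and 5.93 ± 1.23% and 5.80 ± 0.798% in hippocampus (SD, n = 10 each). Each genotype difference was smaller than the spread between mice of either genotype.

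Psmb1, the third member on chromosome 17, had 92.5, 108 and 115.9 RPKM (lowest, median and highest) in WT and 82.9, 95.8 and 116.2 in KO prefrontal cortex. Its log2 fold change was -0.17 (SE 0.0625, unadjusted p = 0.0114, edgeR adjusted p = 0.218). In striatum and hippocampus it was -0.005 (SE 0.0757) and 0.09 (SE 0.101).

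In prefrontal cortex, 12 of 46 members (26.1%) had an unadjusted p under 0.05, against 14.1% of all genes tested there. The 4 with positive log2 fold changes were Psmd13, Psmc5, Psmd1 and Psme4, and the 8 with negative ones were Psma2, Psma5, Psmb1, Psmc3, Psme1, Psme3, Psmg3 and Psmg4. These genes were picked after their values were seen. Psmd13, a cap lid subunit, had the smallest p. It had 8.20, 9.61 and 11.3 RPKM in WT and 10.1, 11.4 and 12.1 in KO, and 6 of 10 KO libraries lay above every WT one. Its log2 fold change was 0.20 (SE 0.0601, edgeR adjusted p = 0.109), and with DESeq2 it had an adjusted p of 0.0475. Sirt3 on the opposite strand overlaps 10.1% of its exon bases.

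Psma2, an alpha subunit, had 48.5, 55.2 and 58.3 RPKM in WT and 43.1, 48.3 and 56.5 in KO cortex, with a log2 fold change of -0.18 (SE 0.0559, adjusted p = 0.123). Without mouse 226, a WT mouse on the lacking diet, edgeR called Psma2 and Psmd13 in this comparison. Psme1 had 8.01, 10.9 and 14.1 RPKM in WT and 7.22, 9.41 and 11.03 in KO cortex, with -0.28 (SE 0.0908, adjusted p = 0.151). In striatum Psme1 had -0.13 (SE 0.0955, adjusted p = 0.750) and in hippocampus 0.05 (SE 0.0967, adjusted p = 1.00).

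In hippocampus the KO log2 fold change was above 0 for 38 of 46 tested members (82.6%, against 50.4% of all genes tested), with a median of 0.062 against 0.000814 over all genes. Leaving out each mouse in turn gave 34 to 40 of 46 members, and the 8 other settings gave 37 to 38 of 45 to 50 tested. These fits reuse the same libraries, and no share of all genes is given beside their counts. In prefrontal cortex 23 of 46 members were above 0 and in striatum 22 of 46, against 50.3% and 49.3% of all genes. The smallest hippocampal p was that of Psmb4, a beta subunit, with 10.8, 13.4 and 17.6 RPKM in WT and 14.2, 14.8 and 18.0 in KO. Its log2 fold change was 0.19 (SE 0.0650, edgeR adjusted p = 0.704).

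The summed RPKM of all 50 members in hippocampus was 1124 ± 55.1 in WT and 1169 ± 39.0 in KO (SD, n = 10 each), and the ranges, 1046 to 1235 and 1105 to 1226, overlapped. The summed level of oligodendrocyte markers was 668 ± 67.6 RPKM in WT and 550 ± 113 in KO hippocampus, and the ranges were 548 to 779 and 454 to 788. Neuronal markers were at 1134 ± 60.1 and 1173 ± 52.3 RPKM. RNA integrity numbers averaged 8.66 in WT and 8.78 in KO. The part of these in the hippocampal values was not tested.

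**Figure D5:**
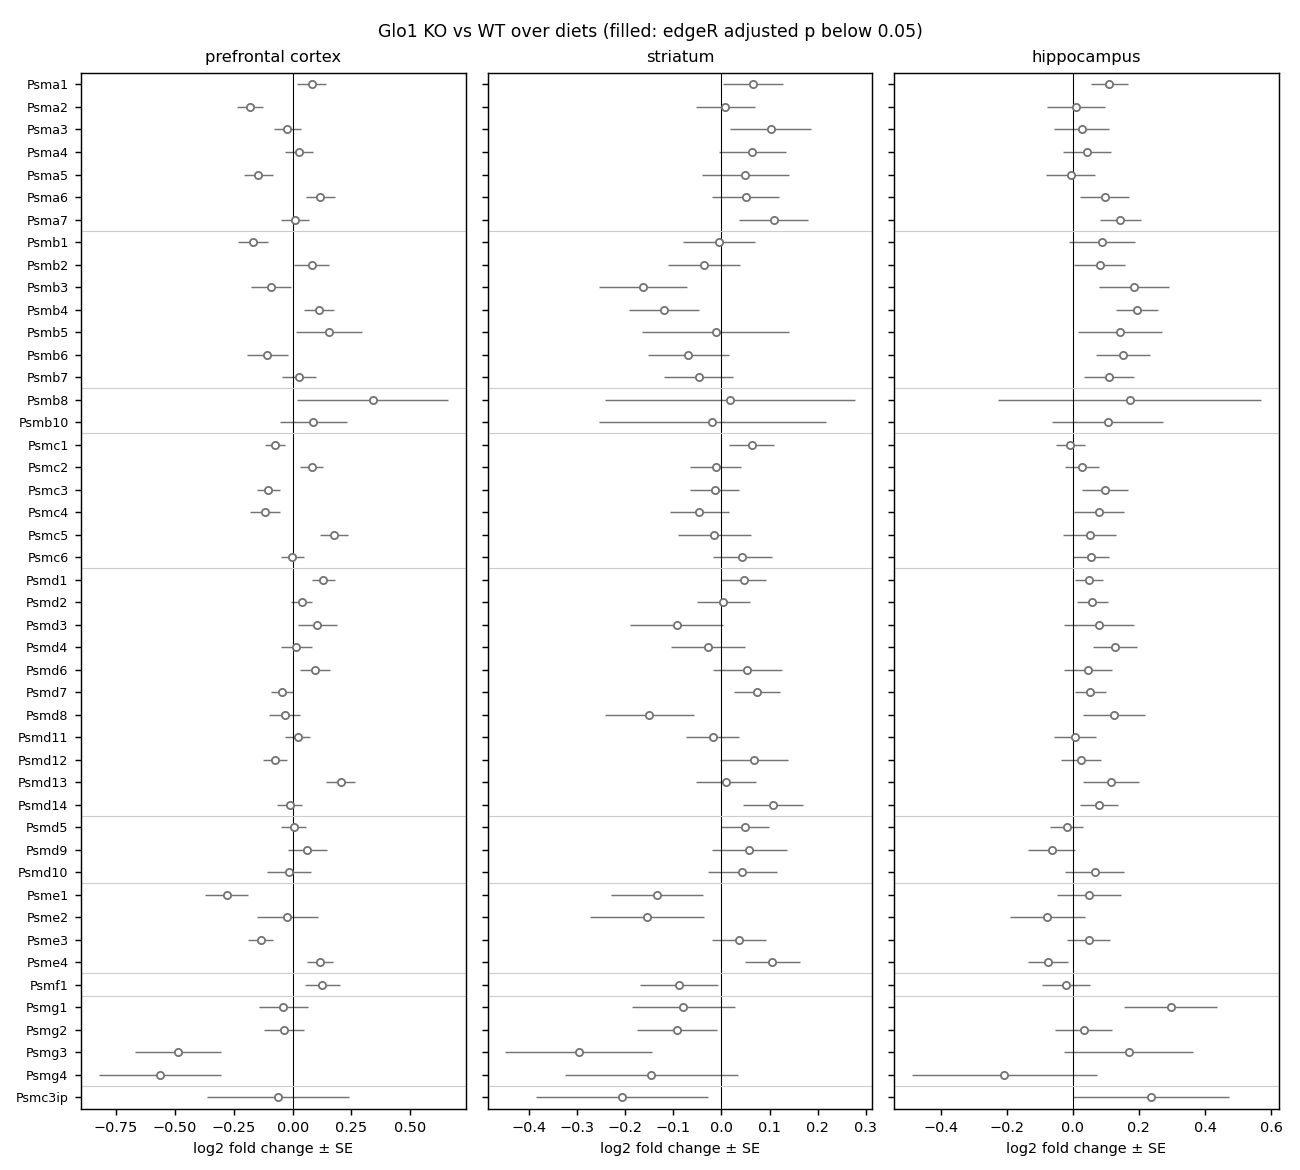
Log2 fold change ± SE (horizontal axes, scaled separately) of KO against WT over diets for the tested genes in prefrontal cortex, striatum and hippocampus, 10 mice per genotype; filled red points would mark an edgeR adjusted p below 0.05. No point is filled, and 38 of 46 hippocampal points lie right of 0.

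Within each diet the result was the same count of 0. On the normal diet, edgeR called 0 members in prefrontal cortex, striatum and hippocampus (against 0.121%, 0.0601% and 0.0299% of all genes), with 1, 0 and 2 members at an unadjusted p under 0.05 (5.37%, 2.43% and 7.48% of all genes). On the lacking diet it called 0 in each (0.234%, 0.128% and 0.0672% of all genes), with 12, 2 and 3 at an unadjusted p under 0.05 (12.4%, 4.58% and 6.02% of all genes). DESeq2 and limma called 0 in all 6.

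Diet was tested within each genotype. For the lacking against the normal diet, edgeR, DESeq2 and limma called 0 of 46 members in WT and in KO mice in all 3 regions, and edgeR also called 0% of all genes in each. At an unadjusted p under 0.05 there were 0, 2 and 0 members in WT prefrontal cortex, striatum and hippocampus (2.27%, 2.91% and 4.03% of all genes), and 1, 2 and 3 in KO (5.19%, 1.68% and 6.56%). Psmb5 in KO hippocampus had the smallest p of these, chosen after its value was seen. It had 8.22, 9.27 and 15.1 RPKM (lowest, median and highest of 5) on the normal diet and 5.60, 7.09 and 8.41 on the lacking diet, with a log2 fold change of -0.53 (SE 0.178, edgeR adjusted p = 0.719).

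Psmb10 kept its order of regions in all 4 combinations of genotype and diet. Its group means were 3.26, 3.04, 3.48 and 3.36 RPKM in prefrontal cortex for WT normal, WT lacking, KO normal and KO lacking. In striatum they were 0.880, 1.06, 1.03 and 0.805, and in hippocampus 1.67, 1.99, 2.11 and 1.80. The largest SD of a group of 5 was 0.994 RPKM in prefrontal cortex, 0.439 in striatum and 0.645 in hippocampus, which exceeds each diet difference within a genotype. Group means of the share were between 9.55 and 10.6% in prefrontal cortex, 3.82 and 4.10% in striatum, and 5.52 and 6.34% in hippocampus.

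The interaction, which asks whether the KO difference depended on diet, gave 0 of 46 members in each region by edgeR, DESeq2 and limma, against 0% of all genes by edgeR. Only hippocampus had members at an unadjusted p under 0.05, and these 3 were Psmb5, Psmc6 and Psmd14. Over all genes the shares at that level were 3.17% in prefrontal cortex, 1.70% in striatum and 9.45% in hippocampus. Psmb5 had an interaction of -0.69 on the log2 scale (SE 0.254, adjusted p = 0.513).

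Whether the KO difference itself differed between regions was tested in the fit of 60 libraries. By edgeR, 0 of 47 members passed for striatum against cortex, hippocampus against cortex and hippocampus against striatum, against 0%, 0.00718% and 0% of all genes. There were 4, 7 and 5 members at an unadjusted p under 0.05 (9.18%, 6.03% and 5.81% of all genes), and DESeq2 and limma called 0. Psmb4 had the smallest p, with a difference of 0.30 between hippocampus and striatum (SE 0.0872, adjusted p = 0.735).

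Genes that regulate the proteasome or bring it substrates were read from a list of 25, of which 24 were in the table. It includes Nfe2l1, the transcription factor that raises subunit genes when proteolysis is limiting, its processing enzymes Ddi2 and Ngly1, the assembly factor Pomp and the ubiquitin shuttles. edgeR called 0 of 24 in KO against WT over diets in every region, with 6, 1 and 0 at an unadjusted p under 0.05 in prefrontal cortex, striatum and hippocampus. These unadjusted counts stand against 14.1%, 5.78% and 4.24% of all genes. Between regions it called 18 of 24 for striatum against cortex (8 higher, 10 lower), 13 for hippocampus against cortex (3 higher, 10 lower) and 11 for hippocampus against striatum (5 higher, 6 lower), against 69.9%, 59.3% and 66.4% of all genes. The list's median log2 fold changes were -0.03, -0.02 and -0.06, and those of all genes 0.01, 0.01 and -0.01. Nfe2l1 had log2 fold changes of -0.14 (SE 0.0408, adjusted p = 0.00148), -0.45 (SE 0.0410, adjusted p = 7.46e-15) and -0.31 (SE 0.0410, adjusted p = 1.59e-09) in these pairs.

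A second list held 13 genes of interferon signalling and of peptide loading on MHC class I, the steps that surround the immunoproteasome. Between regions edgeR called 6 of 13 for striatum against cortex (1 higher, 5 lower), 7 for hippocampus against cortex (4 higher, 3 lower) and 8 for hippocampus against striatum (6 higher, 2 lower), against the same 69.9%, 59.3% and 66.4% of all genes. The list's medians were -0.14, -0.01 and 0.22. Irf1, an interferon-responsive transcription factor, had -0.79 (SE 0.107, adjusted p = 2.75e-09) in striatum against cortex and 0.75 (SE 0.107, adjusted p = 1.28e-08) in hippocampus against striatum. Irf8, a factor of myeloid cells, had 0.59 (SE 0.0913, adjusted p = 5.97e-08) and -0.94 (SE 0.0936, adjusted p = 1.62e-13). Tap1, the neighbour of Psmb9, had medians of 0.148, 0.108 and 0.239 RPKM in cortex, striatum and hippocampus and was higher in hippocampus than in striatum by 0.85 (SE 0.187, adjusted p = 7.41e-05). Nfe2l1, Irf1 and Irf8 were picked after their values were seen.

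Of these 13 genes, B2m alone passed in a KO comparison. B2m encodes the light chain of MHC class I. In prefrontal cortex it had 255.5, 368 and 487 RPKM (lowest, median and highest of 10) in WT and 209.9, 266 and 389 in KO, and the genotypes overlapped. Its log2 fold change over diets was -0.44 (SE 0.0967, edgeR adjusted p = 0.0221). It was -0.09 (SE 0.116, adjusted p = 0.828) in striatum and -0.07 (SE 0.113, adjusted p = 1.00) in hippocampus, and neither regional difference of the KO effect passed, with adjusted p of 0.540 and 0.799 against cortex. The call was lost without any of 6 mice (259, 317, 339, 368, 381 and 390), with adjusted p between 0.0518 and 0.0609, and in limma and in the fit of 60 libraries.

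The summed level of the 10 microglial markers was 178 ± 6.99 RPKM in WT and 166 ± 8.05 in KO prefrontal cortex (SD, n = 10 each), and 1 of the 10, P2ry12, passed as lower in KO (against 0.673% of all genes). The part of this in the B2m value was not tested. Tap1 had 0.190 ± 0.0749 and 0.160 ± 0.0698 RPKM in WT and KO cortex, with a log2 fold change of -0.26 (SE 0.280, adjusted p = 0.715).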

How the data were processed

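The authors deposited raw counts per gene and RPKM values, both as 1 table of 21999 genes and 60 libraries. Per the submitters' processing notes, reads were handled with STAR 2.7.1a and HTSeq 0.9.1 on mm10; the annotation and the strand setting were not given in the sources used here. The deposited RPKM values equal the counts divided by a fixed gene length and the library total. Per the labels, libraries were poly(A)-selected from 2 µg of total RNA and read as single 75-bp reads, with RNA integrity numbers of 7.6 to 9.3. Every value column was matched to a sample by name (0 unmatched).

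Counts were tested with edgeR 4.0.16 in R 4.3.3 (TMM factors, filterByExpr at its settings of 10 counts and 15 in total, quasi-likelihood F-tests, two-sided, Benjamini-Hochberg over all genes, threshold 0.05). KO, diet and interaction comparisons used the 20 libraries of a region with a mean per group; region comparisons used all 60. Levels and shares are RPKM. Alternatives were DESeq2 1.42.0, limma 3.58.1 on log2(RPKM + 1) and log2(RPKM + 0.1), no TMM factors, other count filters, the RNA integrity number as covariate, 1 fit of 60 libraries, the mouse as a block and leaving out each mouse. The fit was tested on simulated data.

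Libraries of 1 mouse share its number across regions. Their residuals had a mean correlation of 0.0327, 0.0369 and 0.0709 for the 3 pairs of regions, against -0.00795, -0.00843 and -0.0170 for different mice. The 120 pairs of libraries within groups had a chi-square per gene of 1.94 to 26.2, so no library was a copy of another in its group. Pairs across groups were not compared in this way.

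Coordinates and overlaps come from GENCODE M21, and promoter sequences from RefSeq (GRCm38.p6). Shared 75-base stretches were counted against all GENCODE transcripts. The text gives members by role, the 6 catalytic subunits in every region, the 6 members with the smallest adjusted p per pair of regions, the extremes of each role, list genes past the threshold in KO, diet or interaction comparisons, and Tap1. Members and lists were chosen with earlier results of these data known.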

Additional observations from a re-analysis of the deposited data

Results flagged for a closer look

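For the 6 catalytic subunits and the immunoproteasome share, 84 groups of 5 libraries were examined for a library whose gap to its nearest neighbour took up an unusual part of the group's range. There were 2 such libraries, and chance gives about 4.2 among 84 groups. Psmb6 in prefrontal cortex of mouse 317, a WT mouse on the normal diet, had 12.2 RPKM, and the other 4 libraries of its group had 14.9 to 15.9 RPKM. The immunoproteasome share in striatum of mouse 267, a KO mouse on the normal diet, was 4.98%, and the other 4 libraries had 3.76 to 4.05%.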

How the results depend on the processing

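Counts of members called stayed within 1.5 times the reported count in the region, diet, interaction and genotype comparisons under every alternative run, with 1 exception: for KO against WT over diets in prefrontal cortex DESeq2 called 1 member and leaving out each mouse gave 0 to 2. With the mouse as a replicate block, edgeR called 24, 17 and 26 members for striatum against cortex, hippocampus against cortex and hippocampus against striatum. Shares of all genes are not given with the block, so its counts have no background beside them. The block changed the call of none of the 33 named values it could be run on. The immunoproteasome share in prefrontal cortex was 8.283% from CPM; as a share of all 20S subunits it was 0.9478% in prefrontal cortex, 0.352% in striatum and 0.5464% in hippocampus. The KO minus WT difference in the share of catalytic subunits was not tested, and its sign was not stable in 2 regions. Leaving out each mouse gave -0.2816 to 0.0939 percentage points in hippocampus and -0.2179 to 0.1548 in striatum. As a share of all 20S subunits the hippocampal difference was 0.003237. Among log2 fold changes, directions reversed only for values close to 0 that had not passed. For hippocampus against cortex Psmb8 was 0.1484 with the RNA integrity number as covariate, 0.002202 in limma on log2(RPKM + 1) and 0.05729 without TMM factors, and for hippocampus against striatum 0.01917 with that covariate. For KO against WT in striatum Psmb1 was 0.002586 in 1 fit of 60 libraries, Psmb10 was 0.001931 with the covariate, and Psmb8 was -0.02993 in limma on log2(RPKM + 0.1), -0.007139 on log2(RPKM + 1) and -0.01803 without TMM factors. Leaving out each mouse gave ranges of -0.01304 to 0.04101 for Psmb6 and -0.1455 to 0.1029 for Psmb8 in hippocampus against cortex, -0.002983 to 0.1016 for Psme1 in KO hippocampus, and in KO striatum -0.06724 to 0.01808 for Psmb1, -0.1296 to 0.08088 for Psmb10, -0.1439 to 0.04231 for Psmb5 and -0.122 to 0.1091 for Psmb8. Psmb6 passed in striatum against cortex with the covariate (adjusted p = 0.0382 by edgeR) and without mouse 226 (0.0284) or 244 (0.0422). The causes were not tested. Among called log2 fold changes, 6 moved by over 1.5 times while keeping their call. In limma on log2(RPKM + 1), Psmb10 was -1.14, -0.57 and 0.58 for striatum against cortex, hippocampus against cortex and hippocampus against striatum, and Psmc3ip was 0.66 and -0.43 for striatum against cortex and hippocampus against striatum. Psmd2 in hippocampus against cortex was -0.1136 and -0.1102 in limma and -0.1125 without TMM factors. Depth limits Psmb11, Psme2b, Psmb9 and Psmb8, at no more than 6, 7, 10 and 17 counts per library.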
